A study of Arabidopsis thaliana with 6 samples.

Results

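Regions bound by LFY that lay close to another bound region were described. A region of the p35S:LFY list was called clustered when another region of the same list lay on the same chromosome with a gap of less than 2000 bp between the facing edges, and such regions were joined into chains, here called clusters. The rule used positions only. It found 425 of the 1954 p35S:LFY regions (21.8%), in 193 clusters, and the other 1529 regions were called isolated.

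LEAFY (LFY) is a plant transcription factor that switches on floral meristem identity genes and thereby directs the change from shoots to flowers. It binds DNA through a C-terminal domain that dimerizes on the site, and its N-terminal SAM domain lets LFY proteins assemble into oligomers. Comparing a LFY that can oligomerize with one that cannot asks how binding at a region depends on these contacts, and regions that lie side by side allow the question to be put to neighbours in the same stretch of chromatin.

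Chromatin immunoprecipitation followed by sequencing (ChIP-seq) was carried out on whole A. thaliana seedlings of 15 days. There were 3 genotypes with 2 biological replicates each. The p35S:LFYTERE plants (line CA29-17) express a LFY cDNA with the T75E and R112E substitutions, which lie on the surfaces through which SAM domains contact each other. The p35S:LFY plants (line CA26-15) express the unchanged LFY cDNA, and Col-0, the wild type, carries no transgene. Both transgenes are driven by the constitutive 35S promoter, so LFY was present in seedling tissues that do not normally contain it, and each is represented by 1 line. The antibody recognizes the C-terminal part of LFY, which both proteins share.

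The deposited lists give TAIR10 positions, a rank (1 is the best) and the coverage fold reduction (CFR) of each bound region. To obtain the CFR, coverage in p35S:LFY was divided by that in p35S:LFYTERE. The ratio thus has the mutant below the line, and a CFR above 1 means less coverage in p35S:LFYTERE. Replicates had been fused before a CFR was computed. A region therefore has 1 value with no replicate error, the lists give no read counts or depth, and no test between genotypes was possible. Intervals below are 95% intervals over regions (order statistics for medians, exact Clopper-Pearson for shares). They cover the sampling of regions only, and regions of the same cluster are not independent of each other. A p35S:LFY region was said to be called in p35S:LFYTERE when it overlapped a region of the p35S:LFYTERE list by 1 bp or more.

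Most clusters were pairs. There were 162 clusters of 2 regions, 25 of 3, 5 of 4 and 1 of 6, so that 31 clusters held 3 or more regions, 101 regions in all. The gaps inside clusters had a median of 691.5 bp (quartiles 263.25 and 1274.5 bp), and 93 of the 232 gaps (40.1%) were under 500 bp. The median over all 1949 gaps between neighbouring regions was 30122 bp. Short gaps were more frequent than somewhat longer ones, with 232 gaps under 2000 bp and 86 gaps of 2000 to 4000 bp. Regions just inside the limit had gaps of 1872, 1959, 1960, 1964 and 1998 bp, and those just outside it gaps of 2016, 2038, 2049, 2063 and 2074 bp. In 31 of the gaps the neighbours lay less than 130 bp apart, the length by which reads had been extended, so that the same reads can add to both regions. Clusters spanned a median of 1567 bp (480 to 6029 bp).

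Clusters lay both inside and outside genes. The midpoint lay inside a protein-coding gene in 178 clustered regions (41.9%) and in 675 isolated regions (44.1%). In 44 clusters every midpoint was inside a gene, in 72 none was, and 77 clusters had both kinds. All regions of a cluster had the same gene as their host or nearest gene in 120 of the 193 clusters (62.2%), and in 12 of the 31 clusters of 3 or more.

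The 6 clusters of 4 or more regions differed widely in how much coverage was lost in p35S:LFYTERE, from a CFR of 2.34 to one of 33.8. The cluster of 6 regions lay at PIP3, which encodes a plasma membrane aquaporin (chromosome 4, 16705980 to 16712008). In genome order its regions had a CFR of 4.97, 5.04, 5.16, 2.92, 5.46 and 5.64, and ranks of 802, 1342, 1183, 682, 1109 and 1205. A single region stood apart, the one with a CFR of 2.92. This region inside PIP3 was the best ranked of the 6 and the only one called in p35S:LFYTERE.

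A cluster of 4 regions covered a stretch of chromosome 1 with SAUR63, a member of the small auxin up RNA genes that respond rapidly to auxin, and its neighbours AT1G29435 and AT1G29460 (10303377 to 10307325). The CFR was 12.4, 24.6, 10.8 and 12.7 along the chromosome, with ranks of 15, 724, 63 and 202. All 4 regions had a CFR above 10, and none was called in p35S:LFYTERE. At AT1G47395 and AT1G47400 (chromosome 1, 17382674 to 17387920) the CFR was 17.9, 21.4, 27.7 and 33.8 with ranks of 296, 332, 528 and 612. None of these 4 was called in p35S:LFYTERE either, and all 4 midpoints lay outside genes.

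The other clusters of 4 held a call. At AT4G28240 and EXPB3, which encodes a beta-expansin, a protein that loosens the cell wall (chromosome 4, 13997126 to 14002876), the CFR was 2.39, 5.07, 9.89 and 5.95 with ranks of 730, 1582, 340 and 1885. The called region was the first, with the lowest CFR, and not the best-ranked one at EXPB3. At AT5G03700 and AT5G03710 (chromosome 5, 966076 to 971170) the CFR was 3.22, 4.84, 5.90 and 2.34 with ranks of 772, 1784, 397 and 1125, and the last region, again the lowest in CFR, was called. At PFD3, which encodes a prefoldin subunit, with WRKY48, a WRKY transcription factor gene, as the nearest gene of the last region at more than 3 kb (chromosome 5, 20085008 to 20087258), the CFR was 9.51, 5.84, 8.07 and 14.6 with ranks of 1738, 1887, 1396 and 167. Here the 2 regions in the middle were called, both by the same p35S:LFYTERE region, and the best-ranked region, the last, was not.

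**Figure D1:**
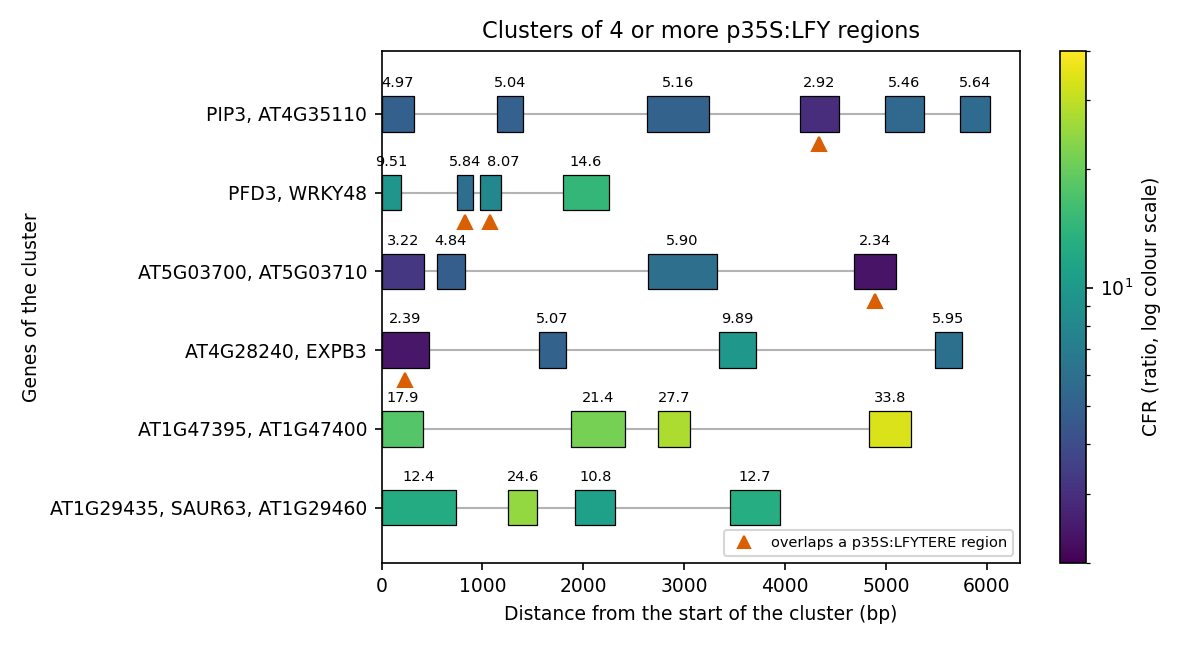
Position (distance from the start of the cluster, bp) and CFR (colour on a log scale, and number above each box) of every region in the 6 clusters of 4 or more regions, with each cluster named by the host or nearest genes of its regions and triangles under regions that overlapped a p35S:LFYTERE region. The regions at PIP3 were alike in CFR except for the called one at 2.92, while all 8 regions of both chromosome 1 clusters were above 10.

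Clustered regions had, as a group, lost more coverage in p35S:LFYTERE than isolated ones. The median CFR was 9.50 (8.60 to 10.6) over the 425 clustered regions, 7.04 (6.78 to 7.29) over the 1529 isolated regions and 7.40 (7.15 to 7.68) over all 1954. The ranges overlapped widely, with quartiles of 5.53 and 15.0 in clustered regions and of 4.68 and 12.1 in isolated regions. A CFR above 10 was found in 200 clustered regions (47.1%, 42.2 to 51.9%) and 490 isolated regions (32.0%, 29.7 to 34.5%), against 35.3% of all regions. The difference was smaller for a CFR above 20, reached by 71 clustered regions (16.7%, 13.3 to 20.6%) and 192 isolated regions (12.6%, 10.9 to 14.3%), against 13.5% of all regions. Both regions of the list with a CFR above 300 were isolated.

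Rank did not separate the groups. The median rank was 959 (823 to 1098) in clustered regions and 979 (936 to 1025) in isolated regions. Clustered regions were narrower, with a median width of 331 bp against 375 bp in isolated regions. The median CFR was therefore also taken within strata. Among the regions of ranks 1 to 489 it was 10.4 in clustered and 7.63 in isolated regions, and among those of ranks 1466 to 1954 it was 8.75 in clustered and 7.13 in isolated regions. Among the narrowest regions (159 to 308 bp) it was 10.03 in clustered and 7.52 in isolated regions, and among the widest (444 to 865 bp) 8.32 in clustered and 6.43 in isolated regions. Inside genes it was 8.68 in clustered and 6.62 in isolated regions, and outside genes 9.88 in clustered and 7.43 in isolated regions. On each of the 5 chromosomes the clustered median was the higher one, from 8.03 in clustered against 6.99 in isolated regions on chromosome 4 to 11.7 in clustered against 7.57 in isolated regions on chromosome 2. The intervals of both groups overlapped on chromosomes 2, 3 and 4, among ranks 1466 to 1954 and among regions of 366 bp or more, so that in these strata the medians were not separated.

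The median CFR was higher in each class of gaps below 2000 bp than in any class above, although not all of their intervals were apart. Regions whose nearest neighbour was under 200 bp away had a median CFR of 9.90 (8.07 to 12.2, n = 91). At gaps of 200 to 500 bp the median was 8.86 (7.11 to 10.8, n = 89), at 500 to 1000 bp 10.5 (8.20 to 11.5, n = 100) and at 1000 to 2000 bp 9.47 (7.74 to 11.0, n = 145). For isolated regions it was 7.07 (6.63 to 7.80, n = 207) at 2000 to 5000 bp, 6.68 (6.01 to 7.20, n = 265) at 5000 to 10000 bp, 7.07 (6.65 to 7.39, n = 783) at 10000 to 50000 bp and 7.42 (6.57 to 8.26, n = 274) beyond. The medians of the 4 shorter classes did not differ from each other beyond their intervals. Nor did those of the 4 longer classes. The interval at 200 to 500 bp overlapped those of all 4 longer classes, that at 1000 to 2000 bp those at 2000 to 5000 bp and beyond 50000 bp, and the other 2 only that beyond 50000 bp.

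**Figure D2:**
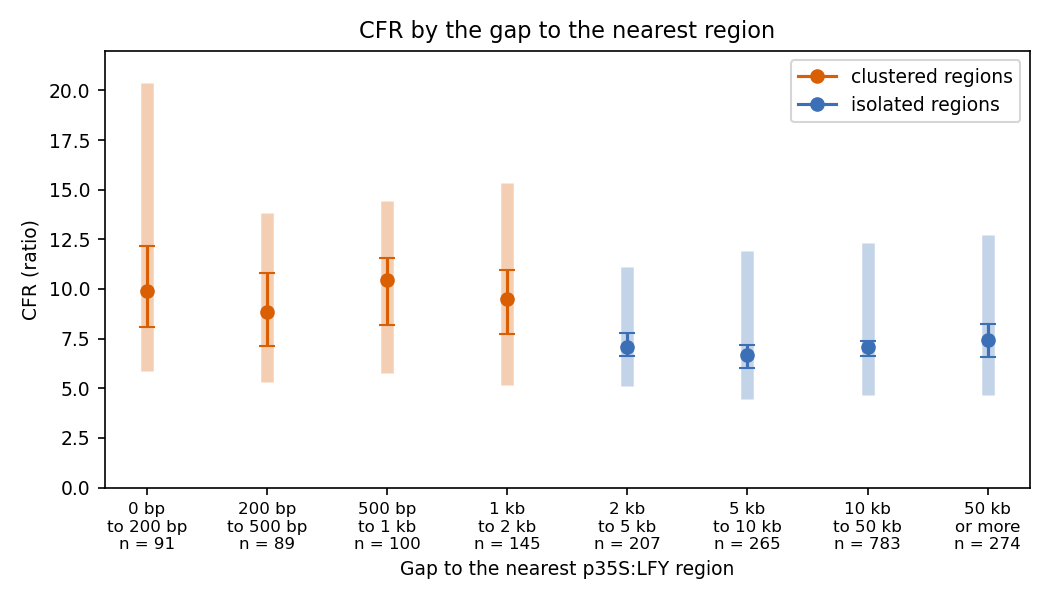
CFR (ratio) of p35S:LFY regions by the gap to the nearest region of the list, with medians as points, 95% intervals over regions as error bars and quartiles as pale bars, for clustered (orange) and isolated (blue) regions. Medians lay between 8.86 and 10.5 at gaps under 2 kb and between 6.68 and 7.42 at longer gaps, with wide overlap of the quartiles.

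A larger cluster did not mean a larger CFR. The median was 9.88 (8.85 to 10.9, n = 324) in regions of pairs and 8.01 (6.08 to 10.3, n = 101) in regions of clusters of 3 or more, with overlapping intervals. Among these, the 6 regions at PIP3 had a median of 5.10.

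Within a cluster, neighbours often differed in how much coverage was lost. The highest CFR of a cluster was a median of 1.88 times the lowest (1.65 to 2.08; range 1.02 to 23.9). The ratio was above 2 in 87 of 193 clusters and above 5 in 18, and below 1.5 in 66. In clusters of 3 or more it had a median of 2.82 (2.05 to 4.13) and was above 2 in 23 of 31. The largest of more values is higher by construction, so this value is not comparable with the 1.79 (1.54 to 1.93) of the pairs. Between successive regions less than 2000 bp apart the median ratio was 1.78 (n = 232), against 1.93 at gaps of 2000 to 5000 bp (n = 125) and 1.91 at gaps of 50000 bp or more (n = 690). Spearman's rho of the CFR of successive regions was 0.40 at gaps under 500 bp (n = 93), 0.19 at gaps of 500 to 2000 bp (n = 139) and 0.00 at gaps of 2000 to 5000 bp (n = 125). These pairs of neighbours share the libraries, their place in the genome and, when closest, reads, and a region can enter 2 of them. For rank, rho was 0.01 under 2000 bp.

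Ranks within a cluster spread over much of the list. The best and the last rank of a cluster differed by a median of 642 places (6 to 1851), and by more than 1000 places in 59 clusters. The best-ranked region had the lowest CFR of its cluster in 91 clusters and the highest in 93.

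The widest spread of CFR was found in a pair. Clusters of 3 at AT1G20490 (10.8-fold) and MYB37 (9.61-fold), described below, spread wider than the pairs at AT5G02450 (8.69-fold) and VIP2 (7.26-fold). At AT5G62140 (chromosome 5, 24955785 to 24956534) regions 93 bp apart had a CFR of 74.8 and 3.13, and only the region with the lower value was called in p35S:LFYTERE. At AT1G79420 (chromosome 1, 29871541 to 29872313) the CFR was 3.43 and 79.6 in regions 258 bp apart, with ranks of 1952 and 874, and neither was called. The next pairs were AT3G02250 with a CFR of 2.30 and 26.5, AT5G02450 and AT5G02460 with 41.3 and 4.75, and AT5G59700 and VIP2 with 6.25 and 45.4. In each of these 5 pairs a region with a CFR above 20 stood beside one with a CFR below 7.

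The closest regions were not always alike. The 5 smallest gaps were at PERK15, a proline-rich receptor-like kinase gene (0 bp, CFR of 5.92 and 11.4), PUB23, a U-box E3 ubiquitin ligase gene (32 bp, 18.5 and 72.5), AT5G03830 beside TFL1 (43 bp, 22.5 and 31.7), NIP1 (49 bp, 169.7 and 50.1) and AT5G23280 (49 bp, 42.6 and 31.0). The value at NIP1 was the highest of any clustered region. None of these 10 regions was called in p35S:LFYTERE. The values within a pair differed 3.92-fold at PUB23 and 3.39-fold at NIP1, but only 1.37-fold at AT5G23280 and 1.41-fold beside TFL1.

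Among clusters of 3, the largest spread was at AT1G20490 and AT1G20500 (chromosome 1, 7097543 to 7100956), where the middle region had a CFR of 2.17 and its neighbours 23.3 and 19.9. The middle region had rank 85, against 630 and 1322 for its neighbours, and was the one called in p35S:LFYTERE. At MYB37, also known as RAX1, a MYB gene that promotes the formation of axillary meristems (chromosome 5, 7695260 to 7699938), the CFR was 22.7, 5.80 and 55.7 with ranks of 511, 196 and 129. The region inside the gene had the lowest value, and none of the 3 was called. EMS1, a receptor kinase gene needed for anther cell fate, and ML4 (chromosome 5, 2290316 to 2292989) had regions with nearly the same ranks, 544, 536 and 518, but a CFR of 49.9, 8.01 and 7.53.

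In other clusters of 3 with a well-ranked region, CFR and rank followed no single order. ERD4, a gene induced early in dehydration, had a CFR of 26.0, 9.64 and 6.74 at ranks 701, 9 and 393. ORP2A, an oxysterol-binding protein-related gene, had 12.8, 4.80 and 8.45 at ranks 36, 1861 and 1359. PDE135, AT2G26515 and AT2G26520 had 25.8, 7.90 and 20.1 at ranks 99, 1329 and 152. These clusters held both a region among the best 100 ranks and one past rank 300, and none of their regions was called. The best-ranked region had the highest CFR at ORP2A and PDE135, and a CFR between those of its neighbours at ERD4.

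PAO5, a polyamine oxidase gene, had 31.5, 10.9 and 44.9 at ranks 229, 143 and 1428. MYB28, which encodes a regulator of aliphatic glucosinolate synthesis, had 50.7, 14.9 and 15.7 at ranks 1111, 1432 and 263. AT5G64120 had 15.3, 7.16 and 5.22 at ranks 1508, 1193 and 195. No region of these was called either.

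Another 6 clusters of 3, named here after their values were seen, were also without a call. EXPA8, an expansin gene, had 11.8, 55.4 and 21.9, and CPFTSY, the gene of a chloroplast signal recognition particle receptor, 26.4, 25.3 and 9.36. BHLH32, a bHLH transcription factor gene, had 9.50, 5.34 and 21.6, and ACR7, a gene for a protein with ACT domains, 5.30, 3.68 and 6.13. The regions at ATOBGM and PLL5, a POLTERGEIST-like phosphatase gene, had 11.6, 10.3 and 5.65, and those at AT1G29060 13.5, 7.40 and 14.8. Of these 6 clusters, the one at ACR7 alone had no region with a CFR above 10.

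The smallest spreads were at AT2G11225 and AT2G11270 (4.20, 5.88 and 5.72, a ratio of 1.40), AT5G02530 and AT5G02540 (4.65, 6.79 and 6.08, a ratio of 1.46), AT1G75180 and AT1G75190 (5.22, 8.12 and 5.91), AT3G05220 (3.20, 3.20 and 5.08) and AT1G78820 and AT1G78830 (5.51, 4.35 and 3.33). All 15 regions of these clusters had a CFR below 10.

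**Figure D3:**
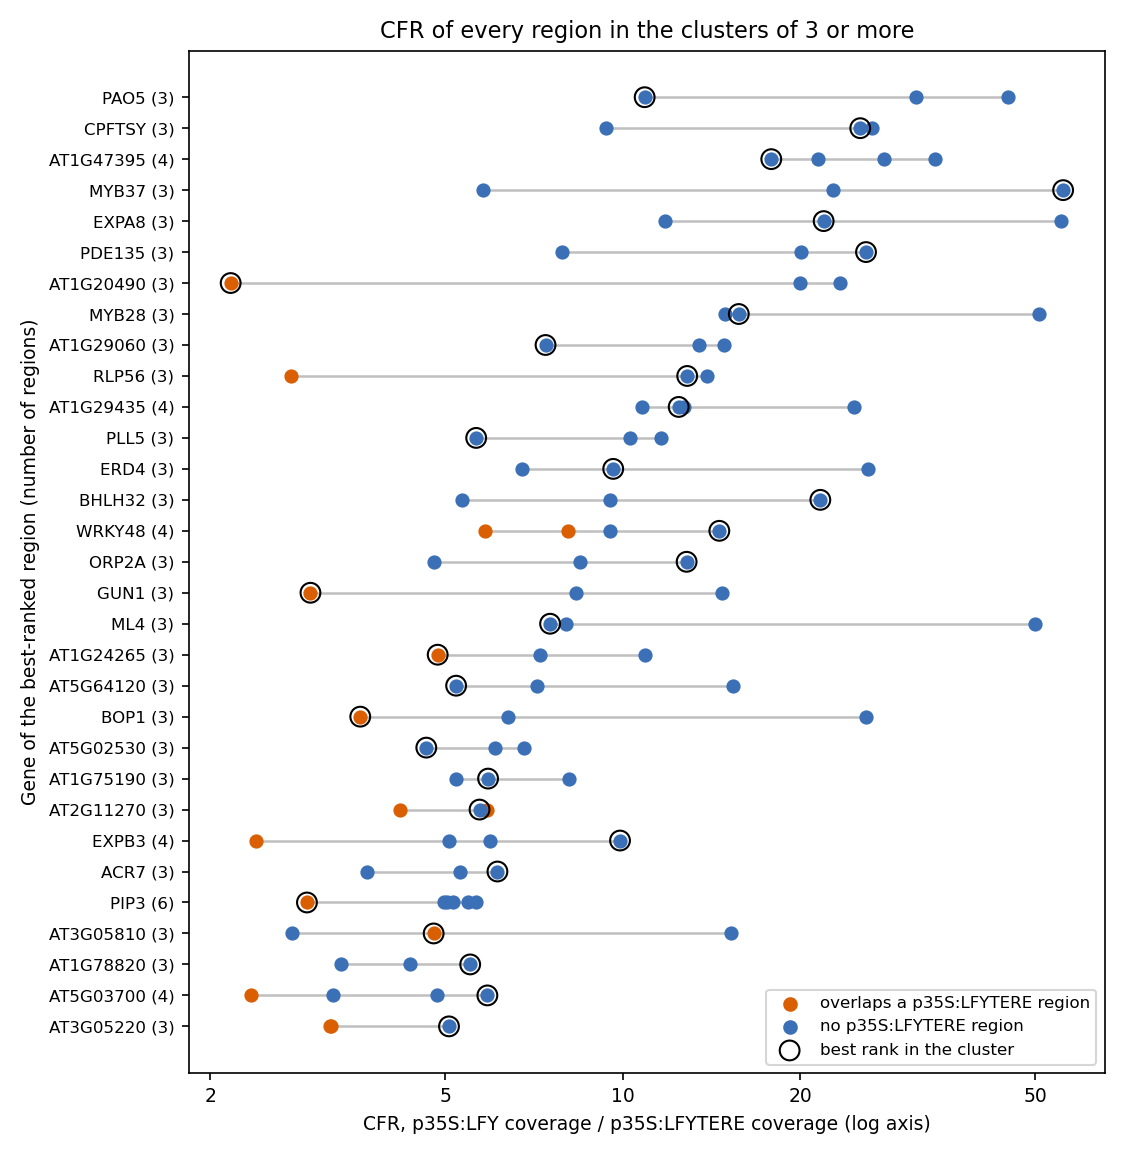
CFR (log axis) of every region in the 31 clusters of 3 or more, 1 line per cluster in the order of the median, with orange points for regions that overlapped a p35S:LFYTERE region, blue points for the others and a ring around the best-ranked region. An orange point lay at the lowest CFR of its line in 11 of the 12 clusters that have one, and 23 of the 31 lines spanned more than 2-fold.

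Over all members, the frequency of calls in p35S:LFYTERE did not separate clustered from isolated regions. Calls were found for 45 of the 425 clustered regions (10.6%, 7.83 to 13.9%) and for 128 of the 1529 isolated regions (8.37%, 7.03 to 9.87%), against 8.85% of all regions, and the intervals overlapped. The order turned when only the best 1000 regions were used (11.3% of clustered and 13.6% of isolated regions) and when at least 50% of the p35S:LFYTERE region had to be covered (7.76% of clustered and 8.37% of isolated regions). The intervals were apart when only the best-ranked region of each cluster was used, a setting chosen after seeing the data, with 15.0% (10.3 to 20.9%) in these and 8.37% (7.03 to 9.87%) in isolated regions. This choice selects on rank, and called regions had better ranks than uncalled ones, with a median of 521 against 1029 among isolated regions. The share was 9.26% (6.33 to 13.0%) in pairs, 30 of 324 regions, and 14.9% (8.56 to 23.3%) in clusters of 3 or more, 15 of 101 regions. Among the regions of ranks 1466 to 1954, 8 of 97 clustered regions (8.25%, 3.63 to 15.6%) and 5 of 392 isolated regions (1.28%, 0.415 to 2.95%) were called. Of those 8 clustered regions, 7 lay under a p35S:LFYTERE region that covered 2 p35S:LFY regions at once.

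A call usually touched 1 region of a cluster. Of the 193 clusters 38 (19.7%) held a call, 31 of them for 1 region and 7 for 2. In 4 clusters, all of them pairs, every region was called. In the other 34 the called region, or 1 of the called regions, had the lowest CFR of its cluster in 30 and the best rank in 25. In clusters of 3 or more, 12 of 31 held a call, which fell on the lowest CFR in 11 and on the best rank in 6. By the study's mapped read totals, the p35S:LFYTERE libraries were shallower than those of p35S:LFY, and the part of this in the missing calls was not tested. Since the CFR is divided by the p35S:LFYTERE coverage, a low CFR at a called region follows in part from the definition.

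The same holds, in the other direction, for uncalled regions. Called clustered regions had a median CFR of 3.30 (2.92 to 4.20; range 1.82 to 9.62). The uncalled regions of the same clusters had 7.60 (5.72 to 10.9, n = 49; range 2.75 to 74.8). Regions of clusters without any call had 10.8 (9.88 to 11.6, n = 331). For isolated regions the median was 2.96 (2.74 to 3.14) when called and 7.48 (7.20 to 7.85) when not. Uncalled regions beside a called one thus had a median close to that of uncalled isolated regions. Clusters without a call had a higher median than both, but its interval overlapped that of the uncalled regions beside a called one.

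In the 162 pairs, both regions were called in 4, the better-ranked region only in 19, the other region only in 3 and neither in 136. The 4 fully called pairs were at RBL12, a rhomboid-like gene (CFR of 5.77 and 5.29), CDS5, a CDP-diacylglycerol synthase gene (3.30 and 2.11), the RING-finger genes RHA1B and RHA1A (2.80 and 2.10) and AT5G60630 with PDIL1-4 (4.54 and 6.97). Their 8 regions all had a CFR below 7.40, the median of the whole list. At RBL12 and AT5G60630 a single p35S:LFYTERE region reached across both p35S:LFY regions.

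**Figure D4:**
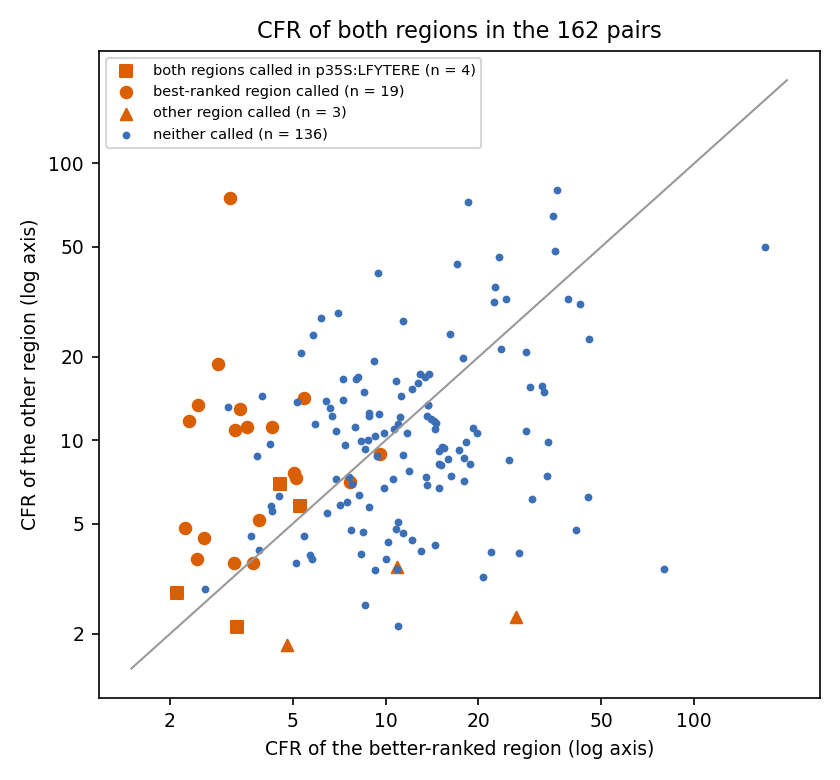
CFR of the better-ranked region (x axis, log) against that of the other region (y axis, log) in the 162 pairs, with the line of equal values and symbols for which region overlapped a p35S:LFYTERE region. Of the 19 pairs with only the better-ranked region called (circles), 16 lay above the line, where the called region has the lower CFR, and the 4 pairs with both called (squares) had values below 7.40.

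Some closely spaced regions of the p35S:LFY list corresponded to 1 region in p35S:LFYTERE. The 176 p35S:LFYTERE regions comprised 40 that overlapped clustered regions, 128 that overlapped isolated regions and 8 that overlapped none. Of the 40, 5 overlapped 2 p35S:LFY regions each, separated by gaps of 58 to 221 bp. These were at RBL12, AT2G11225, AT3G05220, PFD3 and AT5G60630. At AT3G05220 the p35S:LFYTERE region had rank 2 of its own list (chromosome 3, 1490579 to 1491044), while the p35S:LFY regions under it had ranks of 1671 and 1850 and a CFR of 3.20 each. The uncalled region there had rank 333 and a CFR of 5.08. At AT2G11225 the p35S:LFYTERE region had rank 10 and lay over p35S:LFY regions of ranks 929 and 1005, and the neighbour of rank 92 beside AT2G11270 was not called. Ranks order regions within a list only and are not comparable as amounts between lists.

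The remaining called clusters of 3 showed the same uneven pattern. At AT1G24265 and SEP3 the called region was the middle one, as described below. At GUN1, a gene of signalling from plastids to the nucleus, and AT2G31390 (chromosome 2, 13384341 to 13387303) the CFR was 14.7, 8.32 and 2.96, and the region inside GUN1 with the lowest value was called. At AT5G49280 and RLP56, a receptor-like protein gene (chromosome 5, 19975859 to 19980495), it was 13.9, 2.74 and 12.9, and the middle region was called. The exception among the 12 was AIF1 with AT3G05810 (chromosome 3, 1728734 to 1730962), where the called region had a CFR of 4.78 while the uncalled region nearest AIF1, which encodes a bHLH-type protein, had 2.75 and the one between them 15.2.

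Known regulators of flower and meristem development were found at clusters. A gene was counted when a clustered region lay within it or within 3 kb of either end, which held for 494 of 27444 protein-coding genes (1.8%). Of the 95 genes in 7 lists on development and hormones, 12 (12.6%) were at a cluster and another 28 (29.5%) were near isolated regions only. Of all protein-coding genes, 3362 (12.3%) were near isolated regions only, so the lists stood above the share of all genes at both kinds of region. The lists were chosen with LFY biology and earlier results of these data in view, so the count is a description. With a window of 1 kb the count was 6 of 95 genes, and it was also 6 when only the best 1000 regions were used.

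Among 24 floral identity genes, 4 were at a cluster: AP1, SEP3, MYB17 and BOP1. All 4 clusters held 1 called region, beside 38 of all 193 clusters (19.7%) with a call. With so few clusters, from lists chosen with earlier results known, this difference was not tested. AP1, a MADS-box gene that confers floral meristem identity, had a region inside the gene with a CFR of 18.9 and rank 1475, and one 1088 bp away, outside the gene, with a CFR of 2.86 and rank 140 (chromosome 1, 25984912 to 25986933). The region outside the gene was the one called in p35S:LFYTERE. The pair differed 6.62-fold in CFR.

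SEP3, a MADS-box gene that acts in floral organ development, shared its cluster with AT1G24265 (chromosome 1, 8597108 to 8600570). The CFR was 10.9, 4.86 and 7.24 with ranks of 1462, 4 and 934. The middle region, 1 of the best ranked of the whole list, was the one called, and the first 2 lay within 3 kb of SEP3. At BOP1, which encodes a transcriptional co-activator of leaf and flower patterning (chromosome 3, 21145937 to 21148659), the CFR was 3.59, 6.40 and 25.8 with ranks of 599, 1301 and 1787. The first region was called, and the one with the highest value lay inside the gene. At MYB17, a MYB gene acting in floral meristem identity, regions 94 bp apart had a CFR of 3.50 and 10.9 with ranks of 573 and 176, and the one with the lower CFR, nearer to AT3G61240, was called. At AP1, SEP3, BOP1 and MYB17 alike, a called region with a CFR below 5 shared the cluster with an uncalled one above 10. This was not particular to them, as clusters at AT1G20490, GUN1 and AT5G62140, among others, had it too. A low CFR at a called region also follows in part from the definition.

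No region of the other listed genes at a cluster was called. These are few regions, and 10.6% of all clustered regions were called, so the absence of calls is not far from that share. TFL1, which maintains the inflorescence meristem and opposes the floral fate, was at the pair with a CFR of 22.5 and 31.7 named above. It was 1 of 13 inflorescence and shoot meristem genes (7.69%), beside 1.8% of all genes. FD, a bZIP factor that acts with the florigen FT, was 1 of 9 flowering time genes, with a CFR of 6.43 and 13.8 in regions 218 bp apart. RAX1 was 1 of 8 genes of axillary meristems and organ boundaries.

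Auxin genes were also at clusters. TIR1, an auxin receptor gene, had a pair of nearly equal CFR, 13.7 and 13.4, at ranks 128 and 617 and 68 bp apart. YUC4, an auxin synthesis gene, had 15.3 and 12.2 in regions inside the gene at ranks 661 and 262. PIN7, an auxin efflux carrier gene, had 1 region of a pair within 3 kb. This region had rank 3 and a CFR of 11.4, and its partner had rank 1699 and a CFR of 4.63. The nearest gene of both regions was AT1G23070. All regions within 3 kb of these 3 genes had a CFR above 10, beside 47.1% of all clustered regions. These are few regions, and the partner with a CFR of 4.63 lay beyond 3 kb of PIN7.

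Of 17 gibberellin genes 1 (5.88%) was at a cluster, beside 1.8% of all genes. This was GID1B, a gibberellin receptor gene, with a CFR of 12.2 and 4.35 at ranks 131 and 1278. None of 10 type-A cytokinin response regulator genes was at a cluster, and 4 of them had isolated regions. At a share of 1.8%, a list of 10 genes would most likely have none. In families matched by symbol, 7 of 115 MYB genes, 3 of 39 ERF and DREB genes, 10 of 219 cytochrome P450 genes and 2 of 67 WRKY genes were at a cluster, and 0 of 81 NAC and 0 of 77 AGAMOUS-LIKE genes. These shares were 6.09% for MYB, 7.69% for ERF and DREB, 4.57% for P450 and 2.99% for WRKY genes, beside 1.8% of all genes. Each lay above the share of all genes but rests on few genes, and the difference was not tested. At 1.8%, families of the size of NAC and AGAMOUS-LIKE would have only a few genes at a cluster or none. Neighbouring P450 genes shared clusters, CYP71B23, CYP71B3 and CYP71B24 among them, where regions at ranks 501 and 52 had a CFR of 15.7 and 32.1.

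Pairs with the best ranks were, after that at AT1G23070 near PIN7, those at AT3G53950, TCL2, MYB12 and AT3G50400. AT3G53950 had rank 7 and a called region with a CFR of 3.38 beside one of 13.0. TCL2, an R3-type MYB gene that represses trichome formation, had rank 11 and a CFR of 29.3 beside one of 15.6. MYB12, a regulator of flavonol synthesis, had 14.3 at rank 12 and 11.7 at rank 728, both inside the gene. AT3G50400 had a called region with a CFR of 7.65 at rank 13 beside one of 7.06. The 5 best-ranked regions of pairs thus covered a CFR of 3.38 to 29.3.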

How the data were processed

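ChIP-seq was done with an LFY antibody on seedlings of 3 genotypes. The authors mapped reads and removed duplicates with SHORE, and the submitters' processing notes name TAIR10. A peak was kept if each of the 4 replicate-by-control comparisons (2 replicates, 2 controls) gave a false discovery rate below 1e-07. They extended reads by 130 bp, scaled and fused replicates, and scaled genotypes on background peaks of Col-0. The deposited rank is a score that orders regions within a list, and the deposited CFR is a linear ratio of coverage over fused replicates. Depth is not given in the files.

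Gaps, clusters, overlaps, medians and intervals were computed with pandas 2.3.3, scipy 1.17.1 and numpy 2.4.6 under Python 3.11.15, and figures were drawn with matplotlib 3.10.9. Chaining and overlap were tested on simulated data. Gene names and neighbours came from a RefSeq table of TAIR10.1 with 27444 protein-coding genes. Midpoints of regions lay outside genes in 56.3% of cases, against 33.5 to 45.5% after shifts of 1 to 50 kb. A region was assigned to the gene that holds its midpoint or to the nearest one. Genes were named at clusters of 4 or more, at the 10 clusters of 3 with the best rank, at clusters of 3 or more with a call, at the 5 largest and 5 smallest ratios of CFR in clusters of 3 or more, at the 5 pairs of smallest gap, largest ratio or best rank, at fully called pairs, and from the gene lists. Families and regions chosen otherwise were named after their values were seen. The members and gene lists were chosen with earlier results of these data known. Sequences of regions and promoters were not used here. The values of 1 listed gene are not reported here.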

Additional observations from a re-analysis of the deposited data

How the results depend on the processing

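The settings included the main one and were all cut from the same list. The median CFR of clustered regions was above that of isolated regions in 8 of these 8 settings. It was 11.1 in clustered and 7.63 in isolated regions with the best 1000 regions only and 8.56 in clustered and 6.99 in isolated regions with a gap limit of 5000 bp. It was 9.87 when only the best-ranked region of each cluster was used and 9.38 when clusters with a gap under 130 bp were left out, both alternatives chosen after seeing the data. With the best 1000 regions the median rank of clustered regions was 501, 115 regions were clustered and 6 genes of the lists were at a cluster. A gap limit of 1000 bp gave 280 clustered regions, and a window of 1 kb gave 6 genes of the lists. The share of clustered regions called in p35S:LFYTERE was 7.76% when at least 50% of the p35S:LFYTERE region had to be covered, 5.88% (3.99% in isolated regions) with the best 88 p35S:LFYTERE regions and 15.0% (10.3 to 20.9%; 8.37%, 7.03 to 9.87%, in isolated regions) in the best-ranked region of each cluster alone, added after seeing the data. The ratio of CFR within a cluster moved little in all 5 settings tried (1.81 to 1.98). No paired analysis was possible because the lists hold 1 value over fused replicates, and no replicate could be left out for the same reason. The search for a LFY motif in promoters was not run. The lists carry no depth, and the study's mapped read totals are lower for p35S:LFYTERE than for p35S:LFY. A region absent from the p35S:LFYTERE list may have been below its threshold, which cannot be told apart from a loss of binding.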

Other observations

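The p35S:LFYTERE list held few clusters of its own under the same rule: 7 of its 176 regions (3.98%), in 3 clusters. It is much shorter than the p35S:LFY list, and such a share depends on the length of a list. With the best 1000 p35S:LFY regions only, 115 were clustered, against 425 of all 1954. The shares of both lists are therefore not comparable. In the p35S:LFYTERE list, pairs lay at CDS5 and at RHA1B and RHA1A. Both regions of each pair overlapped a clustered p35S:LFY region. The only cluster of 3 was at LFY itself (chromosome 5, 24844292 to 24846980), with ranks of 44, 43 and 15 in that list and a CFR of 0.729, 1.06 and 0.654. No p35S:LFY region overlapped these 3, and the nearest, at GUT1, lay 1989 bp from the first of them. The transgenes carry the LFY cDNA, and coverage from the transgene and from the endogenous gene cannot be told apart in these lists.

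Of the other p35S:LFYTERE regions without an overlap, the one at OFP16, an OVATE family gene (chromosome 2, 13646936 to 13647193), had rank 7 and a CFR of 1.83 and lay 266 bp from a p35S:LFY region at AT2G32090. That p35S:LFY region was isolated.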
